A study of Homo sapiens with 24 samples.

Results

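The Notch genes described here are 10 members of 1 signaling pathway, taken by name from the 58051 gene identifiers in the deposited RNA-seq tables of human colorectal cancer cells. They comprise the receptors NOTCH1, NOTCH2 and NOTCH3, the ligands JAG1, JAG2, DLL1 and DLL4, and the target genes HES1, HEY1 and NRARP. All 10 matched an Ensembl identifier. The study compared cells with an intact CTNNB1 gene, which encodes β-catenin, and cells in which both copies had been inactivated by CRISPR/Cas9. Bulk RNA was measured in 24 libraries of the established colorectal carcinoma lines HT29, HCT116 and SW480. HT29 and SW480 carry truncating mutations of APC, and HCT116 carries an activating CTNNB1 mutation, so WNT signaling is constitutively active in each parental line. In the knock-out (KO) cells an internal CTNNB1 exon was deleted, giving a frame shift and an early stop. The wild-type (WT) cells were clones that kept the CTNNB1 alleles of the parental line. HT29 was represented by WT clones 11 and 40 and KO clones 28 and 38, HCT116 by WT clones 4 and 6 and KO clones 44 and 47, and SW480 by WT clones 4 and 5 and KO clones 17 and 21. RNA of every clone was sequenced on 2 occasions (rounds A and B), which gave 4 libraries for each line and genotype. A group therefore holds 2 clones, and 4 libraries are not 4 independent knock-outs.

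Notch signaling runs between touching cells. A ligand of the Jagged or Delta-like family on 1 cell binds a Notch receptor on its neighbor, the receptor is cut by an ADAM protease and then by γ-secretase, and the released intracellular domain joins the DNA-binding protein RBPJ and a Mastermind coactivator to switch on target genes. HES1 and HEY1 encode repressors of the basic helix-loop-helix class, and NRARP encodes an ankyrin-repeat protein that limits Notch signaling in return. In the intestinal crypt this pathway holds progenitors in the absorptive lineage and keeps ATOH1, the master factor of secretory cells, switched off, while WNT signaling maintains the stem cells in the same place.

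In GRCh37 coordinates, NOTCH1 spans chr9:139388885-139440500, NOTCH2 chr1:120454176-120643366, NOTCH3 chr19:15269849-15311806, JAG1 chr20:10618332-10654647, JAG2 chr14:105607319-105635161 and DLL1 chr6:170591294-170615653, all on the minus strand. DLL4 at chr15:41221538-41231271 and HES1 at chr3:193853937-193856521 lie on the plus strand, whereas NRARP at chr9:140194083-140196723 lies on the minus strand. The values are read counts per annotated gene. The library kit does not mark strand, so reads from an overlapping gene on the other strand cannot be told apart from those of the member. This touches NOTCH1, NOTCH2, JAG1 and NRARP, each of which overlaps a long noncoding RNA gene on the other strand, and DLL1, whose span overlaps FAM120B. JAG2 and DLL1 also overlap a long noncoding RNA gene on the same strand. These overlaps are of gene spans. NOTCH2 also has near-identical partial copies in the genome, so its counts are uncertain to the extent that reads were divided among them.

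Promoters of 8 of the 10 members were found in the RefSeq promoter table (GRCh38.p14). No entry was used for DLL1 and HEY1. The 250 bases before the annotated start are shown for HES1, NRARP and JAG2, since NRARP and JAG2 were the members that fell most in a KO line while HES1, the best-known Notch target, had a KO mean of 99.9% of the WT mean in the same line. Sequences run 5′ to 3′ on the gene's strand, with the RBPJ core TGGGAA in capitals.
HES1 promoter, chr3:194135898-194136147, plus strand: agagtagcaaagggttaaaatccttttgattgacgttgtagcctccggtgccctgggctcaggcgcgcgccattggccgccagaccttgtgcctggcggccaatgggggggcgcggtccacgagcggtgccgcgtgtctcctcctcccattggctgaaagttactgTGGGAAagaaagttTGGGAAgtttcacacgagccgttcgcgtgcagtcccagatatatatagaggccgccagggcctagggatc
NRARP promoter, chr9:137302272-137302521, minus strand: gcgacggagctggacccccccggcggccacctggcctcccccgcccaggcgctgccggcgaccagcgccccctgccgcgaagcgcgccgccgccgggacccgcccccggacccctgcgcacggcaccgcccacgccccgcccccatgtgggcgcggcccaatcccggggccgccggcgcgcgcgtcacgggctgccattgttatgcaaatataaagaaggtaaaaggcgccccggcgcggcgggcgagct
JAG2 promoter, chr14:105168777-105169026, minus strand: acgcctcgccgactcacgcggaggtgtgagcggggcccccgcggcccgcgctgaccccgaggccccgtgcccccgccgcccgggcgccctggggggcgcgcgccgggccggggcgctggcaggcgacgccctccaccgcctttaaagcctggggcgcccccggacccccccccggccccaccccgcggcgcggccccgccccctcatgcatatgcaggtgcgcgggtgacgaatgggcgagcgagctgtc

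Both strands of these windows were searched for TGGGAA and for CTTTGAT and CTTTGAA, which are common forms of the site bound by the TCF/LEF partners of β-catenin. The HES1 window held TGGGAA on the gene's strand from 84 to 79 and from 70 to 65 bases before the start. The other 7 windows held no match to any of the 3 words. Of 35116 promoter windows of the same length, 20.8% held TGGGAA or its reverse complement, and 5.94% held CTTTGAT or CTTTGAA on either strand. A match is a run of letters and not a measured binding event, and the absence of a match describes these 250 bases.

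The libraries held between 22297049 and 29068378 reads on genes. CTNNB1 RNA in the KO clones was 4.98% of the WT mean for HT29, 1.83% for HCT116 and 2.18% for SW480, so each library matched its label. The epithelial keratins KRT8 and KRT18 were abundant in every library. VIL1 lay between 0 and 40.5 normalized counts in HCT116 and SW480, CDX2 between 1.98 and 19.9 in HT29, and CDH1 between 20.2 and 85.9 in SW480, so these defining epithelial markers were near absent in the lines named. The 4 leukocyte markers summed to between 0 and 24.5 normalized counts. Values below are normalized counts, which are reads divided by a size factor of the library, unless a level per length is named.

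In WT cells, NOTCH1 and NOTCH2 were the receptors with most RNA in all 3 lines. NOTCH3 separated HCT116 from the others, JAG2 dominated the ligands of HCT116, and HES1 was low in HCT116. Levels of different genes were compared as RPKM, the reads per kilobase of merged exons, scaled to the library's total of reads on genes. As a share of the summed RPKM of the 3 receptors in WT libraries, NOTCH2 took 56.9% ± 2.1 (SD, n = 4) in HT29, 49.6% ± 5.8 in HCT116 and 63.9% ± 2.6 in SW480. NOTCH1 took 41.2% ± 1.3, 33.7% ± 1.6 and 35.7% ± 2.5. NOTCH3 took 16.7% ± 6.9 in HCT116, against 1.89% ± 0.85 in HT29 and 0.43% ± 0.14 in SW480. In RPKM, WT NOTCH1 lay at 3.32 ± 0.61 for HT29 cells, at 4.29 ± 0.56 for HCT116 and at 4.46 ± 0.58 for SW480. The test separated HT29 from SW480 (log2 difference in normalized counts -0.36, adjusted p = 0.0477), but not without HT29 WT library 11B (-0.22, adjusted p = 0.144) or without any of the SW480 WT libraries 4B, 5A and 5B (adjusted p between 0.0758 and 0.142) or with clone as a random effect (adjusted p = 0.142), and no other pair of lines passed for NOTCH1. WT NOTCH2 lay at 4.62 ± 1.07, 6.33 ± 1.23 and 7.95 ± 0.55 RPKM in the same order. The outer pair passed (-0.74, adjusted p = 0.0026), while the neighbors HT29 and HCT116 (adjusted p = 0.0539) and HCT116 and SW480 (adjusted p = 0.142) did not differ beyond their spread.

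**Figure D1:**
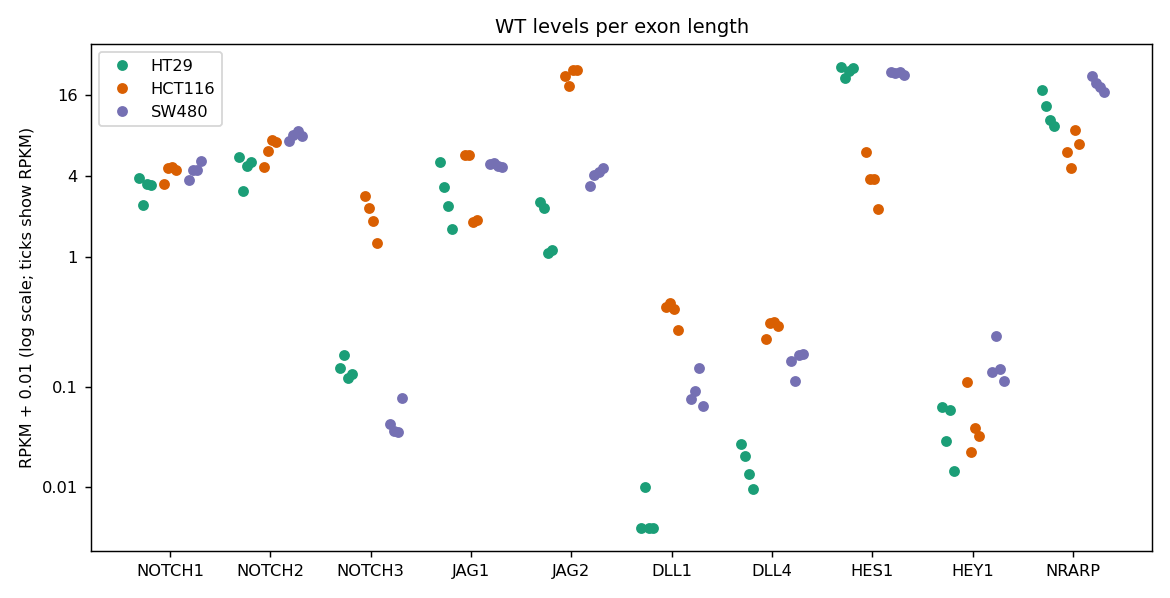
RPKM of the 10 members in the WT libraries of HT29, HCT116 and SW480 (vertical log axis of RPKM + 0.01, with ticks marked in RPKM; 1 point per library, 4 per line). NOTCH1, NOTCH2 and JAG1 lie within a similar range in the 3 lines, whereas NOTCH3 and JAG2 are highest in HCT116, HES1 is lowest in HCT116, and DLL1 and DLL4 are lowest in HT29.

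NOTCH3 levels in the WT lines did not overlap. Normalized counts were 690, 551, 456 and 332 in HCT116 (clones 4A, 4B, 6A and 6B), between 30.6 and 45.6 in HT29, and between 9.65 and 19.6 in SW480. HCT116 therefore exceeded SW480 by 5.20 on the log2 scale (adjusted p = 1.4e-09) and HT29 by 3.74 (adjusted p = 3.9e-08), and HT29 exceeded SW480 by 1.46 (adjusted p = 0.0003). These differences, and all fold changes below, are on the scale of log2(normalized count + 1), which understates changes of genes with few reads.

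Among the ligands, JAG1 was the main ligand by RPKM in WT HT29, where it took 62.9% ± 5.2 of the summed RPKM of the 4 ligands, and JAG2 was the main ligand in HCT116 with 83.2% ± 8.7. In SW480 the Jagged pair was near balance, with 52.7% ± 3.8 for JAG1 and 44.6% ± 3.7 for JAG2. These shares cover the 4 member ligands and leave out DLL3, whose reads in WT SW480 are given below. JAG2 RPKM was 22.2 ± 2.7 in HCT116, 4.09 ± 0.52 in SW480 and 1.77 ± 0.78 in HT29, and each step of that order passed the test (log2 difference in normalized counts 2.47 between HCT116 and SW480, adjusted p = 7.6e-07, and -1.23 between HT29 and SW480, adjusted p = 0.0005). JAG1 RPKM was 4.81 ± 0.15 in SW480, 3.80 ± 2.25 in HCT116 and 3.09 ± 1.49 in HT29, and no pair of lines differed beyond the spread (adjusted p between 0.144 and 0.746).

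The Delta-like members DLL1 and DLL4 were present at low counts. DLL3, which is not a member and was named after its values were seen, had 174 to 218 reads in the WT SW480 libraries. It had 0 to 2 in those of HT29 and 0 to 5 in those of HCT116. DLL1 had 0 or 1 read in every HT29 library, WT or KO, which is under the limit of 3 reads that a count of 0 allows, and was not tested there. Its WT levels were 41.3, 43.6, 40.7 and 29.5 normalized counts in HCT116 and 8.09, 9.19, 13.5 and 6.85 in SW480. HCT116 was at least 12.3-fold and SW480 at least 2.98-fold higher than HT29 when HT29 was set to 3 reads per library, and HCT116 exceeded SW480 by 1.96 on the log2 scale (adjusted p = 9.9e-05). Limits and intervals from reads cover counting error only. DLL4 had 1 to 4 reads in the WT HT29 libraries. It lay between 29.4 and 40.7 normalized counts in HCT116 and between 13.8 and 22.5 in SW480, a log2 difference of 0.91 between these lines (adjusted p = 0.0140) that missed the threshold without SW480 library 4B (adjusted p = 0.0522) or with clone as a random effect (adjusted p = 0.0560), and both exceeded HT29 without overlap.

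The target genes did not share an order across WT lines. HES1 was at 24.1 ± 2.0 RPKM in HT29 and 23.2 ± 0.7 in SW480, which did not differ beyond the spread (log2 difference in normalized counts 0.12, SE 0.20, adjusted p = 0.603), and at 3.96 ± 1.54 in HCT116, lower than HT29 by 2.72 on the log2 scale (adjusted p = 5.0e-08). NRARP was at 19.2 ± 2.3 RPKM in SW480, 12.6 ± 3.5 in HT29 and 6.58 ± 1.74 in HCT116. HT29 and SW480 differed by -0.56 on the log2 scale (adjusted p = 0.0269) with overlapping libraries and not without HT29 library 40A or 40B or SW480 library 4A or 4B (adjusted p between 0.0569 and 0.0812) or with clone as a random effect (adjusted p = 0.0548), and HT29 exceeded HCT116 by 0.98 (adjusted p = 0.0009). HEY1 had 2 to 39 reads in the WT libraries. Its mean of 22.5 ± 9.1 normalized counts in SW480 exceeded that of HT29 by 1.67 (adjusted p = 0.0053) and that of HCT116 by 1.50 (adjusted p = 0.0101) on the log2 scale, and the latter missed the threshold with clone as a random effect (adjusted p = 0.0676).

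With calls defined as an adjusted p below 0.05 and an absolute log2 difference above 1, 5 members were called between WT HT29 and WT HCT116 (NOTCH3, JAG2, DLL1, DLL4 and HES1), 5 between HT29 and SW480 (NOTCH3, JAG2, DLL1, DLL4 and HEY1) and 6 between HCT116 and SW480 (NOTCH3, JAG2, DLL1, HES1, HEY1 and NRARP). Of all 17205 genes tested, the same rule called 37.5%, 40.1% and 40.2%, so the share of members called lay close to that of other genes. DLL1 met the minimum for the test through HCT116, DLL4 through HCT116 and SW480, and HEY1 through SW480. These are the lines where each was higher. JAG1, NOTCH1 and NOTCH2 were called in no pair of WT lines.

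In SW480, loss of β-catenin went with a large fall of NRARP and JAG2 and a rise of DLL1, while the targets HES1 and HEY1 did not pass the test. NRARP, the feedback inhibitor of Notch, was at 1545, 1333, 1209 and 1131 normalized counts in the WT libraries (4A, 4B, 5A and 5B) and at 148, 139, 138 and 167 in the KO libraries (17A, 17B, 21A and 21B). The genotypes lay far apart and the KO clones resembled each other, with a KO mean of 11.3% of the WT mean. The log2 fold change was -3.12 (SE 0.11, adjusted p = 1.5e-08, limma), and each of the 4 ratios of a KO clone to a WT clone lay between -3.32 and -2.93. HES1 in the same libraries was at 1295, 1220, 1217 and 1174 in WT and 1060, 1206, 1319 and 1314 in KO. Its fold change was -0.01 on the log2 scale (SE 0.08, adjusted p = 0.954), and the KO mean was 99.9% of the WT mean. HEY1 lay between 15.7 and 35.8 normalized counts in WT and between 15.4 and 32.1 in KO (adjusted p = 0.984), which at 16 to 39 reads per library is a loose measurement.

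JAG2, a Notch ligand of the Jagged family, was at 572, 670, 685 and 757 normalized counts in WT SW480 and at 88.4, 122, 229 and 227 in KO SW480. KO clone 17 was lower than KO clone 21, and both were below every WT library. The log2 fold change was -2.11 (SE 0.28, adjusted p = 0.0002). DLL1 rose from 8.09, 9.19, 13.5 and 6.85 to 36.7, 26.6, 35.5 and 32.6 normalized counts, a log2 fold change of 1.73 (SE 0.26, adjusted p = 0.0004). From reads summed over the libraries the DLL1 ratio was 3.48, with a 95% exact interval of 2.42 to 5.10. The KO and WT libraries of DLL1 did not overlap, and the ratios of clones lay between 1.55 and 1.86. Since 3 of the 4 WT libraries lay under the minimum of 10, DLL1 entered the test through the KO libraries and had to be higher there, and it was not tested without KO clone 17 or KO clone 21.

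Smaller differences in SW480 passed the test without reaching a log2 change of 1. NOTCH2 was higher in KO (0.43, SE 0.13, adjusted p = 0.0226), at 5544 and 5464 normalized counts in clone 17 and 3657 and 3977 in clone 21 against 3204 to 3576 in WT. Without KO clone 17 the NOTCH2 difference was 0.16 (adjusted p = 0.0912), and it also missed the threshold with rounds averaged (adjusted p = 0.163), without WT clone 4 (adjusted p = 0.133) or WT clone 5 (adjusted p = 0.0813), and without KO library 17A or 17B or WT library 4A (adjusted p between 0.0545 and 0.0621). JAG1 was lower in KO (fell by 0.52, SE 0.15, adjusted p = 0.0170), at 959 and 986 in clone 17 and 581 and 747 in clone 21 against 1097 to 1205 in WT. Its fall was 0.24 on the log2 scale, a log2 value of -0.24 (adjusted p = 0.0251), without KO clone 21, and it missed the threshold without WT clone 4 (adjusted p = 0.126) or WT clone 5 (adjusted p = 0.0600) and with rounds averaged (adjusted p = 0.127). DLL4 had 11 to 23 reads per library and a log2 value of -0.65 that missed the threshold (adjusted p = 0.0631) but passed it without WT library 4B (-0.80, adjusted p = 0.0383). It passed in 3 of 21 alternative settings of the test (adjusted p up to 0.300). NOTCH1 differed between the KO clones, at 1471 and 1440 in clone 17 and 735 and 811 in clone 21, around WT values of 1249 to 1666 (adjusted p = 0.150 for the genotype), and without KO clone 17 its log2 value was -0.88 (adjusted p = 0.0001). NOTCH3 was low in both genotypes, between 4.59 and 25.2 (adjusted p = 0.924).

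The SW480 counts have to be read against the breadth of the response. 3 members were called, among them DLL1, which entered the test through the KO libraries, while 17.5% of the 16325 genes tested in SW480 were called. 5 of 10 members passed the adjusted p alone, against 48.1% of all genes, and 5 had libraries that did not overlap between genotypes, against 46.2%. The number of members that changed was therefore near that of other genes. VWF, an endothelial marker, was at 114 to 234 normalized counts in KO and 9.65 to 27.4 in WT SW480, while the endothelial markers CDH5 and KDR stayed between 0 and 1.88. Of the fibroblast markers, COL1A2 was at 40.4 to 122 in WT and 0 to 0.94 in KO, and LUM at 0 in WT and 5.64 to 50.4 in KO. Of the epithelial markers, CDX2 was at 857 to 1333 in WT and 52.7 to 165 in KO, and EPCAM at 1117 to 2110 in WT and 645 to 971 in KO. The paper grew each clone from a single sorted cell. In bulk RNA, a change in the share of cells in a given state and a change of RNA per cell cannot be told apart. The part of these markers in the results was not tested.

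**Figure D2:**
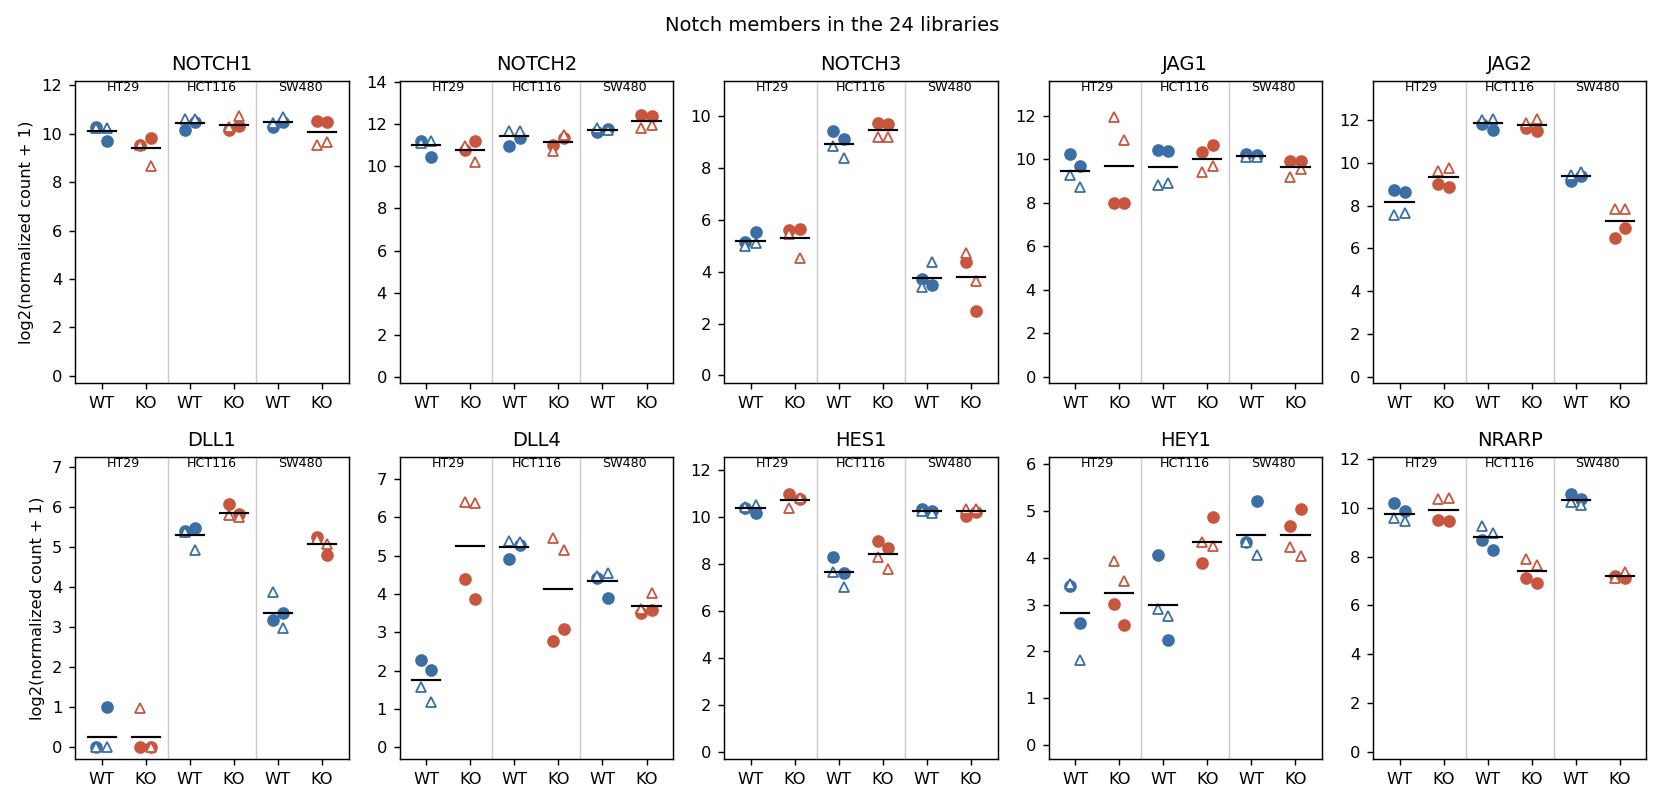
Normalized counts, on an axis of log2(normalized count + 1), of each member in the 24 libraries, by line and genotype (blue WT, red KO; filled circles the lower-numbered clone and open triangles the other, round A left and round B right; black line, mean of 4). NRARP and JAG2 fall in KO SW480, NRARP falls less far in KO HCT116, and the JAG1 and DLL4 points of the HT29 KO clones lie apart.

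In HCT116, NRARP was again lower in the KO clones, and no other member passed the test. NRARP was at 414, 307, 609 and 503 normalized counts in the WT libraries (4A, 4B, 6A and 6B) and at 139, 120, 242 and 202 in the KO libraries (44A, 44B, 47A and 47B). All KO libraries were below all WT libraries, and within each genotype the clones differed. The log2 fold change was -1.39 (SE 0.26, adjusted p = 0.0050), and the KO mean was 38.3% of the WT mean. The call rested in part on WT clone 6, since without it the log2 value was -1.08 (adjusted p = 0.0779), and with the rounds of each clone averaged the adjusted p was 0.0771. The background was 5.06% of 15404 genes called and 14.0% past the adjusted p.

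HES1, whose WT level was low in this line, had a log2 value of the opposite sign to that of NRARP. It was at 319, 197, 204 and 129 in WT HCT116 and at 508, 412, 317 and 221 in KO HCT116, a log2 value of 0.78 (SE 0.30, adjusted p = 0.106) that did not pass. Without WT library 4A (1.00, adjusted p = 0.0400) or KO library 47B (1.00, adjusted p = 0.0345), or in DESeq2 (adjusted p = 0.0480), it did. HES1 passed in 5 of 21 alternative settings of the test, with log2 values from 0.39 to 1.18 and adjusted p up to 0.516. HEY1 was at 15.6, 3.71, 6.47 and 5.71 in WT and at 13.8, 28.3, 19.3 and 18.1 in KO, with 4 to 17 and 14 to 30 reads. WT library 4A lay within the KO range and the other WT libraries below it. The HEY1 log2 value was 1.35 (SE 0.42, adjusted p = 0.0555), and the ratio from summed reads was 2.52 with a 95% exact interval of 1.67 to 3.88. HEY1 entered the test through the KO libraries, since 3 of the 4 WT libraries lay under the minimum of 10. Without WT library 4A it passed (1.71, adjusted p = 0.0165), and HEY1 passed in 3 of 18 alternative settings (adjusted p up to 0.260).

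Among the HCT116 ligands, DLL4 and JAG1 differed between clones of 1 genotype. DLL4 was at 5.90 and 7.54 in KO clone 44 and at 42.8 and 34.3 in KO clone 47, against 29.4 to 40.7 in WT, so 1 KO clone was low and the other at the WT level (log2 value -1.12, adjusted p = 0.209). Without KO clone 47 the log2 value was -2.30 (adjusted p = 0.0010), and without KO clone 44 it was 0.06 (adjusted p = 0.930). JAG1 was at 1378 and 1352 in WT clone 4, 445 and 482 in WT clone 6, 1296 and 1605 in KO clone 44, and 679 and 835 in KO clone 47. The genotypes therefore overlapped (0.39, adjusted p = 0.619), and the value was 1.17 (adjusted p = 0.0486) without WT clone 4 and -0.39 (adjusted p = 0.540) without WT clone 6. DLL1 lay between 52.3 and 65.8 in KO and between 29.5 and 43.6 in WT, without overlap but short of the threshold (0.56, SE 0.22, adjusted p = 0.117). NRARP and DLL1 were the 2 members whose genotypes did not overlap in HCT116, where 20.5% of all genes did not overlap. NOTCH1, NOTCH2, NOTCH3 and JAG2 had log2 values between -0.29 and 0.52 and overlapping genotypes, with adjusted p between 0.138 and 0.776. NOTCH3 passed without WT library 4A (0.68, adjusted p = 0.0495), and in 3 of 21 alternative settings in all (adjusted p up to 0.670).

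In HT29, DLL4 was higher in KO cells, and NRARP did not pass the test. DLL4 was at 3.84, 3.04, 1.98 and 1.25 normalized counts in the WT libraries (11A, 11B, 40A and 40B), which is 1 to 4 reads, and at 20.1, 13.7, 83.5 and 81.7 in the KO libraries (28A, 28B, 38A and 38B). Every KO library exceeded every WT library, and clone 38 exceeded clone 28. The log2 fold change was 3.50 (SE 0.65, adjusted p = 0.0288), and the ratio from summed reads was 18.5 with a 95% exact interval of 9.83 to 39.2. DLL4 passed the minimum of 10 through the KO libraries alone, so a gene that entered the test this way had to be higher in KO. The call was lost with clone as a random effect (adjusted p = 0.0822), with the rounds of each clone averaged (adjusted p = 0.698), and without WT clone 11 (adjusted p = 0.0790), WT clone 40 (adjusted p = 0.175) or any single WT library (adjusted p between 0.0619 and 0.0872). With rounds averaged, CTNNB1 itself missed the threshold in HT29 (log2 value -4.33, adjusted p = 0.0594, limma). A miss in that setting therefore says little about any HT29 gene, here or below. Without any single KO library DLL4 no longer met the minimum and was not tested. DLL4 is also the ligand that endothelial cells use. The 3 endothelial markers measured summed to between 0 and 1.98 in WT and between 1.01 and 8.81 in KO HT29, with KDR at 0 in every HT29 library and CDH5 between 0 and 0.95.

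NRARP in HT29 was at 1170, 943, 763 and 699 in WT and at 734, 703, 1309 and 1348 in KO. The KO clones stood at the lower and the upper end of the range (log2 value 0.16, SE 0.28, adjusted p = 0.804). JAG1 showed the same split on a larger scale, at 251 and 256 in KO clone 28 and 3937 and 1880 in KO clone 38, with WT between 418 and 1206. Neither KO clone overlapped the WT range, and they lay on opposite sides of it, so the genotype difference was 0.22 on the log2 scale with an SE of 0.88 (adjusted p = 0.920). Without KO clone 38 the JAG1 value was -1.48 (adjusted p = 0.0769), and without KO clone 28 it was 1.93 (adjusted p = 0.0649).

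JAG2 was at 421, 400, 190 and 202 in WT HT29 and at 516, 474, 785 and 870 in KO HT29. The genotypes did not overlap, and the log2 value of 1.17 (SE 0.34) did not pass in limma (adjusted p = 0.124), but did in DESeq2 (1.09, adjusted p = 0.0341) and without WT clone 11 (1.70, adjusted p = 0.0487). NOTCH1 was at 1237, 824, 1216 and 1211 in WT and at 745, 915, 733 and 403 in KO, a log2 value of -0.72 (SE 0.27, adjusted p = 0.224), with WT library 11B inside the KO range. HES1 lay between 1177 and 1451 in WT and between 1334 and 2063 in KO (0.36, SE 0.17, adjusted p = 0.331). NOTCH2 (-0.22, adjusted p = 0.695) and NOTCH3 (0.12, adjusted p = 0.882) overlapped between genotypes. HEY1 had 2 to 15 reads and was under the minimum for the test. DLL4, which entered the test through the KO libraries alone, was thus the single call among the 8 members tested. Of 14921 genes, 2.30% were called and 2.56% were past the adjusted p alone. JAG2 and DLL4 were the 2 members without overlap, against 13.0% of genes. In these KO libraries the 5 fibroblast markers summed to 109 to 1210 normalized counts, against 12.2 to 22.5 in WT, with LUM at 82.5 to 1125 and 0 in WT, whereas COL1A2 stayed between 0 and 2.59. Their part in the results was not tested.

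**Figure D3:**
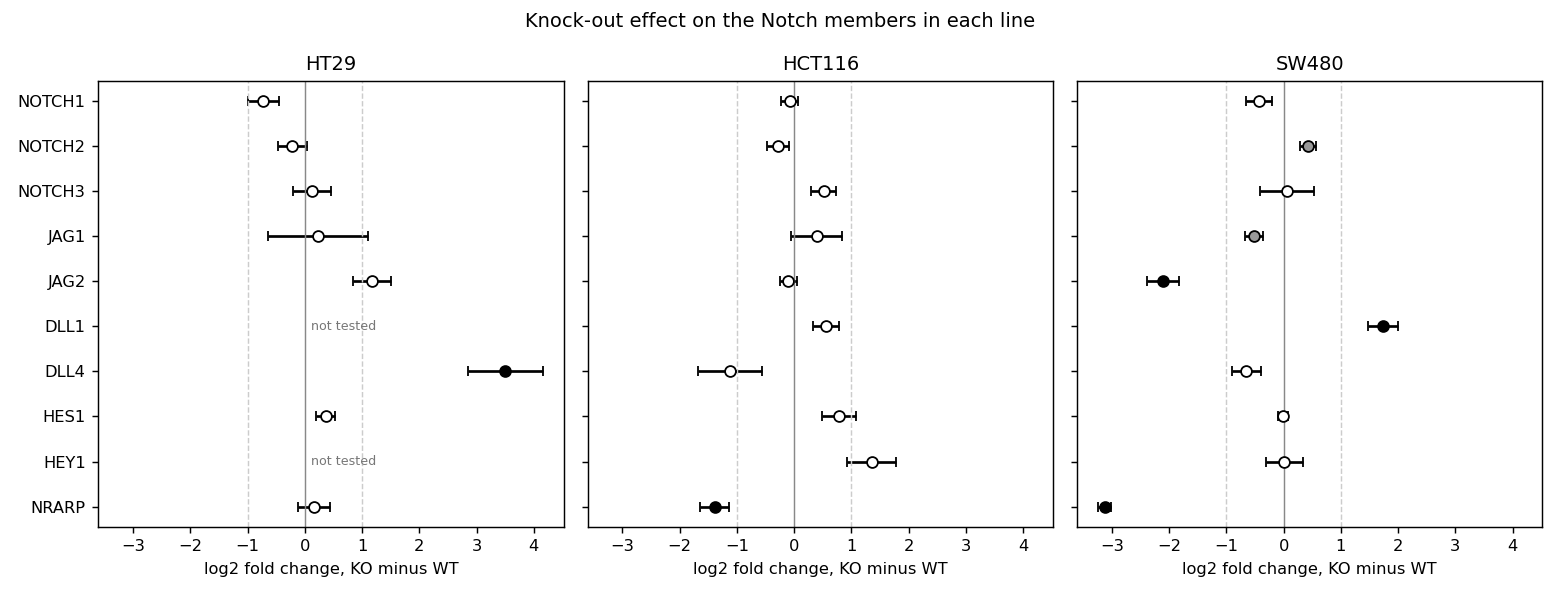
Log2 fold change of KO against WT (horizontal axis; points, limma estimates; bars, 1 SE; 4 libraries per genotype) for the 10 members in each line. Black points passed the adjusted p and the fold threshold at the dashed lines, gray points passed the adjusted p alone, open points did not pass; NRARP is at -3.12 in SW480, -1.39 in HCT116 and 0.16 in HT29.

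Whether the KO effect differed between lines was tested as the difference of the KO-minus-WT values, for members tested in both lines. The KO effect on NRARP differed between every pair of lines. It was higher in HT29 than in HCT116 by 1.55 (adjusted p = 0.0080), higher in HT29 than in SW480 by 3.28 (adjusted p = 5.3e-07), and higher in HCT116 than in SW480 by 1.73 (adjusted p = 0.0015), all on the log2 scale. The KO effect on JAG2 was lower in SW480 than in HT29 by 3.28 (adjusted p = 4.3e-06) and than in HCT116 by 2.01 (adjusted p = 0.0015). The KO effect on DLL4 was higher in HT29 than in HCT116 by 4.62 (adjusted p = 0.0005) and than in SW480 by 4.15 (adjusted p = 0.0005). DLL4 was tested in HT29 through its KO libraries alone, so its effect there had to be positive. In HCT116 its mean was 6.72 in KO clone 44 and 38.5 in KO clone 47. The pairs of lines share groups, so they are not independent. Of 18609 genes, 7.25%, 15.8% and 13.2% passed for HT29 against HCT116, HT29 against SW480 and HCT116 against SW480. Among members, 2 of 8, 3 of 8 and 2 of 10 passed. The members were limited to those tested in both lines, and the 18609 genes were not. No difference passed for NOTCH1, NOTCH2, NOTCH3, JAG1 or HES1, which does not show that their KO effects were alike.

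**Figure D4:**
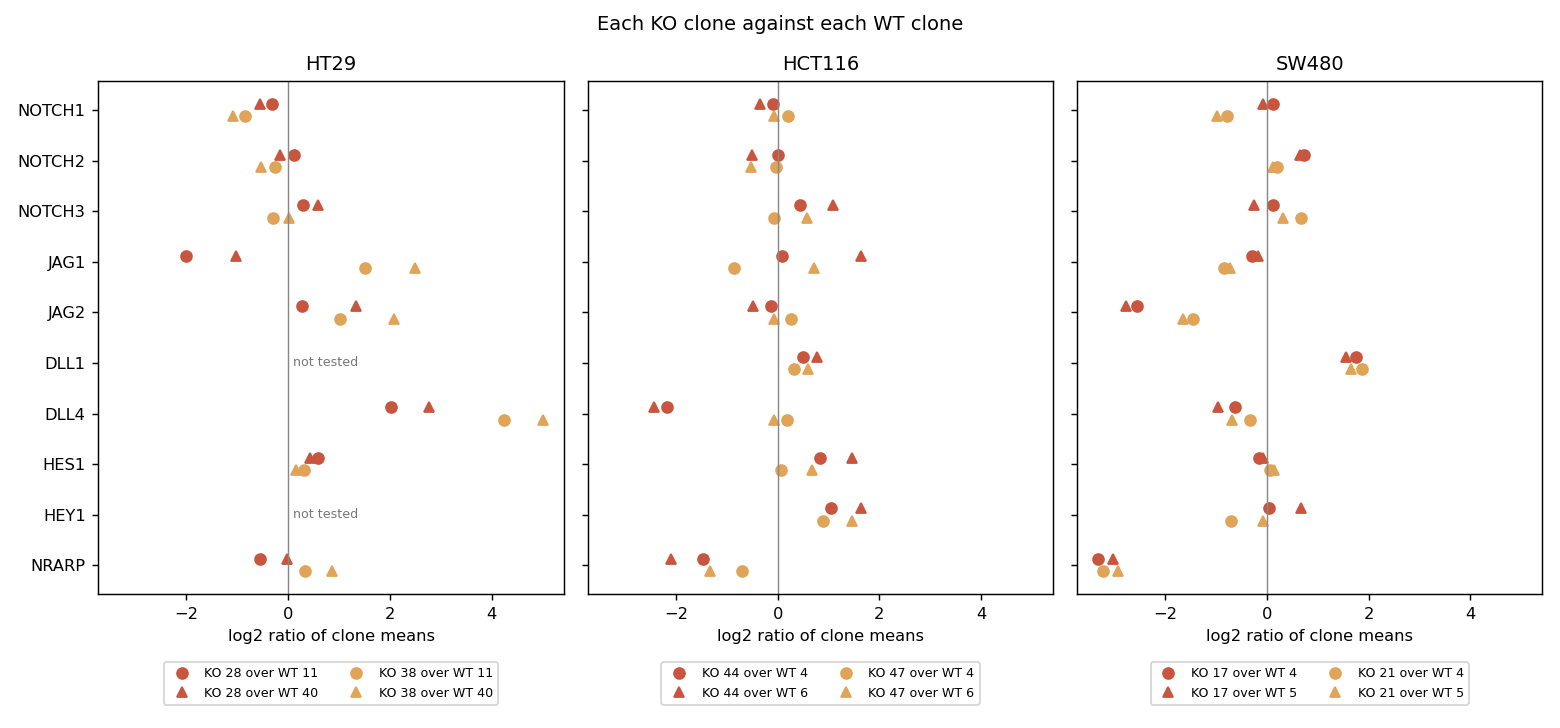
Log2 ratio of the mean of each KO clone to the mean of each WT clone of the same line, after adding 1 (horizontal axis; 4 ratios per member and line; color marks the KO clone, shape the WT clone). The 4 NRARP ratios of SW480 lie between -3.32 and -2.93, while those of JAG1 in HT29 run from -1.999 to 2.49.

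Clones of the same genotype were compared with the 2 rounds as the error, which measures the spread between rounds and not between clones. In HT29, KO clone 28 was below KO clone 38 for JAG1 by 3.42 (adjusted p = 0.0009) and for DLL4 by 2.25 (adjusted p = 0.0152) on the log2 scale. These were the called members, where 12.5% of genes were called, and NRARP (-0.89, adjusted p = 0.0170) and JAG2 (-0.74, adjusted p = 0.0319) passed the adjusted p. Each of these 4 genes was thus higher in clone 38, although NRARP and JAG2 missed the threshold when clone 28 was left with 1 library (adjusted p between 0.119 and 0.238). WT clones 11 and 40 of HT29 differed in JAG2 (1.07, adjusted p = 0.0111), with 7.58% of genes called, and this difference missed the threshold without any 1 of the 4 WT libraries (adjusted p between 0.0779 and 0.0957). In HCT116, KO clone 44 was below KO clone 47 for DLL4 by 2.36 (adjusted p = 0.0032) and for NRARP by 0.77 (adjusted p = 0.0464), and above it for JAG1 by 0.94 (adjusted p = 0.0052), with 3.28% of genes called. The NRARP difference missed the threshold without any 1 of these libraries (adjusted p between 0.0597 and 0.234), and that of JAG1 without library 44B (adjusted p = 0.0588). WT clone 4 of HCT116 exceeded WT clone 6 in JAG1 by 1.56 (adjusted p = 0.0006), where 1.44% of genes were called.

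In SW480, KO clone 17 was below KO clone 21 for JAG2 by 1.12 (adjusted p = 4.4e-05), where 4.61% of genes were called. Clone 17 exceeded clone 21 in NOTCH1 by 0.91 (adjusted p = 5.7e-06), in JAG1 by 0.56 (adjusted p = 0.0007) and in NOTCH2 by 0.53 (adjusted p = 6.5e-05). None of the 10 members passed between the SW480 WT clones 4 and 5 in limma, where 1.97% of all genes were called and 1 member had an unadjusted p below 0.05. JAG1 thus passed the adjusted p between clones in 4 of the 6 comparisons, but was not called between the KO clones of HCT116 or SW480. The share of all genes past the adjusted p alone is not given for clones. Of the other pathway genes described below, 20 of 45 passed it between the SW480 KO clones. For HT29 KO the count was 8 of 40, for HCT116 KO 3 of 42 and for HCT116 WT 1 of 42.

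The other 55 genes listed for the pathway cover 1 further receptor, 3 further ligands, the proteases that cut the receptor and the sugar transferases that modify it. They also cover the ubiquitin ligases and endocytic adaptors, the nuclear complex, further HES and HEY genes, and factors of the secretory lineage. In SW480, 45 of them were tested, and 19 rose and 8 fell in KO cells, against 26.1% and 22.1% of all genes; their median log2 value was 0.12, against -0.0042 over all genes tested. Among the 9 genes of receptor processing 5 rose and 1 fell, with APH1B, a γ-secretase subunit, up by 2.19 (69.7 to 308 normalized counts, adjusted p = 2.2e-05). Of the 12 genes of the nuclear complex 5 rose, RBPJ among them, and 1 fell. RBPJ had means of 2096 and 1944 in WT clones 4 and 5, and of 3178 and 2549 in KO clones 17 and 21. The Mastermind coactivator MAML1 was lower in these KO clones, at 1751 and 1463, against 2390 and 2413 in the WT clones. Of 10 ubiquitin and endocytosis genes tested 5 rose, including NEURL1, a ubiquitin ligase that acts on Notch ligands (1.88, 17.2 to 65.6, adjusted p = 0.0005). LFNG and MFNG, Fringe enzymes that lengthen sugars on the receptor, rose among the 5 glycosylation genes, by 1.56 each. The 2 further ligands tested both fell (median log2 value -0.73), as did the 1 secretory factor tested. Of 6 further HES and HEY genes tested, 3 fell and 2 rose. HEY2, a target gene related to HEY1, fell by 4.52 on the log2 scale, from 257, 233, 208 and 189 to 10.3, 4.59, 8.40 and 13.4 normalized counts (adjusted p = 5.5e-07). HEY2 entered the test through its WT libraries, since the KO values of 4.59 and 8.40 lay under the minimum of 10. HES6, which lacks the usual response to Notch among the HES genes and can oppose HES1, fell by 2.15 (575 to 130, adjusted p = 6.4e-07). LFNG, MFNG, RBPJ and MAML1 were named after their values were seen.

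In HCT116, 42 of the 55 were tested, and 5 rose and 1 fell, against 8.05% and 5.93% of all genes; the median log2 value was 0.0035, beside -0.014 over all genes. The called genes were the Mastermind coactivators MAML3 (3.08, from 13.2 to 124 normalized counts, adjusted p = 9.2e-05) and MAML2 (1.67, from 18.5 to 65.7, adjusted p = 0.0171), and HES6 was the gene that fell (-0.91, adjusted p = 0.0052), chosen for naming after its value was seen. MAML2 missed the threshold without KO clone 44 (1.00, adjusted p = 0.152), WT clone 6 (1.47, adjusted p = 0.115) or KO library 44A or 44B (adjusted p = 0.0517 and 0.0544), and with rounds averaged (adjusted p = 0.124). In HT29, 40 were tested, and 1 rose and 1 fell, against 2.08% and 0.476%; the median was 0.025, beside 0.031 over all genes. MFNG was at 8.64, 6.08, 5.93 and 13.8 in WT and at 37.2, 36.2, 35.1 and 67.4 in KO HT29 (2.24, adjusted p = 0.0201), and with 3 WT libraries under 10 it entered the test through the KO libraries. The MFNG call was lost with clone as a random effect (adjusted p = 0.155), with rounds averaged (adjusted p = 0.605), without WT clone 11 (adjusted p = 0.0948) or WT clone 40 (adjusted p = 0.0555), and without WT library 11A, 11B or 40A or KO library 28A, 28B or 38A (adjusted p between 0.0544 and 0.0690). HES7, a repressor of the HES family, was at 19.2, 24.3, 27.7 and 18.8 in WT and at 4.02, 4.89, 2.85 and 0 in KO (-2.83, adjusted p = 0.0433), entered the test through its WT libraries, and lost the call with clone as a random effect (adjusted p = 0.226), with rounds averaged (adjusted p = 0.677), with a pseudocount of 0.1 (adjusted p = 0.151) and without KO library 28A, 28B or 38A (adjusted p between 0.0614 and 0.0993). ATOH1, the secretory factor that Notch holds down in the crypt, was chosen for naming after its values were seen and was under the minimum for the test in every line. It was at 46.5 and 57.0 normalized counts in HT29 KO clone 38 and at 0 in KO clone 28 and in every WT HT29 library, and clone 38 was also the clone with the higher JAG1 and DLL4 values. Other secretory factors did not share this pattern. SPDEF had means of 1729 in KO clone 28 and 1039 in KO clone 38, against 254 and 717 in WT clones 11 and 40. GFI1 had means of 5.94 and 18.1 in these KO clones, against 2.96 and 16.2 in the WT clones.

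**Figure D5:**
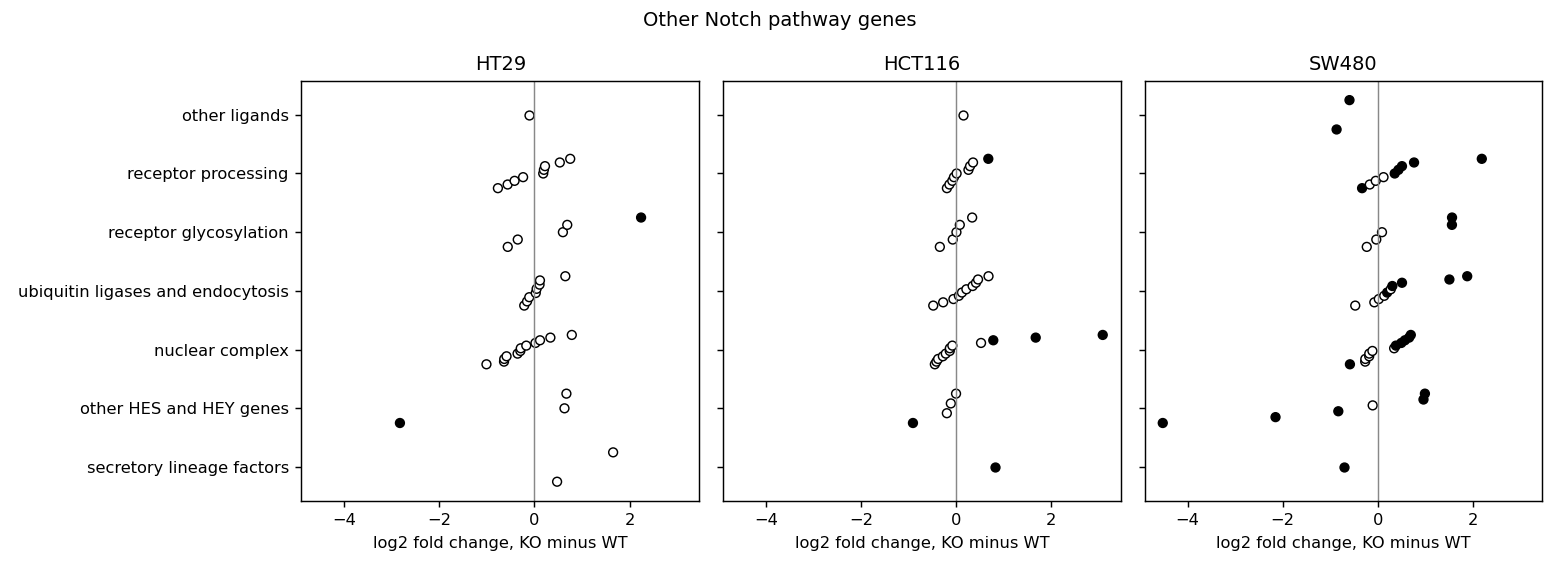
Log2 fold change of KO against WT (horizontal axis; 1 point per gene tested, 4 libraries per genotype) for the other Notch pathway genes by list in HT29, HCT116 and SW480. Filled points passed an adjusted p below 0.05, which 27 genes did in SW480, 6 in HCT116 and 2 in HT29.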

How the data were processed

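Poly(A) RNA of 24 libraries (HT29, HCT116 and SW480, 4 WT and 4 KO libraries each, from 2 clones per genotype in 2 sequencing rounds) was measured by paired-end sequencing of TruSeq libraries. Per the submitters' processing notes, reads were aligned to GRCh37 with STAR 2.7.5b, counted per gene with featureCounts 2.0.1 and normalized with DESeq2 (Galaxy version 2.11.40.6). The deposited signal values are gene counts that the authors divided by a size factor of the library, without a log. Replicates were not pooled, and the gene annotation used for counting is not given in the sources used here. The tables that hold the authors' own comparisons (fold changes and p-values) were not used.

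Identifiers were paired with symbols from the reference gene table (55604 of 58051 matched). Whole reads were recovered from the smallest step of each library (100% of values whole within 0.1). RPKM was computed from these reads and merged exon lengths. A gene was tested in a comparison when at least 4 of its libraries reached a value of 10. The main test was limma 3.58.1 (R 4.3.3, trended and robust empirical Bayes) on log2(value + 1), within each line for KO against WT and for clones, and over all WT libraries or all 24 libraries for lines and for the differences of KO effects, with Benjamini-Hochberg adjustment over all genes tested. A call needed an adjusted p below 0.05 and an absolute log2 fold change above 1. Alternatives were edgeR 4.0.16 (quasi-likelihood, TMM) and DESeq2 1.42.0 on recovered reads, the round as a block, clones averaged or as a random effect, other pseudocounts (0.1 and 5), other filters, and each library or clone left out. Tests were tried on simulated data. Pairing by round was checked as the correlation over genes (which are not independent replicates) of the A-minus-B differences of 2 clones. It was above 0.1 in 6 of 6 pairs in HCT116, 2 of 6 in HT29 and 1 of 6 in SW480, so rounds paired libraries in HCT116, where the block changed no call of a member. The files give libraries of 1 clone in 2 rounds. The main test between genotypes or lines took the 4 libraries of a group as separate replicates, without a term for clone. Its p-values mix the spread between 2 clones with that between rounds, so they can be too small where clones differ. The members and gene lists were chosen with earlier results of these data known. Named pathway genes were up to 4 per line with the largest change among those called, and others are said to be named after their values were seen.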

Additional observations from a re-analysis of the deposited data

Results flagged for a closer look

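The KO effects of 3 members differed between lines by a test of the difference itself (limma, log2 scale). For NRARP the KO effect in HT29 lay above that in HCT116 by 1.55 and above that in SW480 by 3.28, and that in HCT116 lay above that in SW480 by 1.73. For JAG2 the effect in HT29 lay 3.28 and the effect in HCT116 2.01 above that in SW480. For DLL4 the effect in HT29 lay 4.62 above that in HCT116 and 4.15 above that in SW480, with 1 to 4 reads in the WT libraries of HT29. DLL4 was tested in HT29 through its KO libraries alone, so its effect there had to be positive.

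In 3 of 60 groups of 4 libraries, 1 library lay far from the others by Dixon's criterion, and chance marks about 1 in 20 groups. NOTCH1 was at 824 normalized counts in HT29 WT library 11B, below the other 3 WT libraries. DLL1 was at 1.01 in HT29 WT library 11B and at 0.949 in HT29 KO library 38A, which is 1 read in each, with 0 reads in the other libraries of those groups.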

How the results depend on the processing

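Counts of members called changed as follows, and except where genes or libraries were fewer by construction the cause was not tested. In HT29 (1 call, DLL4) the count was 0 with the round as a replicate block (DLL4 adjusted p = 0.0576), 0 with clone as a random effect, 0 with rounds averaged, 0 without WT clone 40 and 2 in DESeq2. It was 0 without KO clone 28 or 38 and 0 when every library had to reach 10, since DLL4 was then not tested, and it was 0 without any single library. In HCT116 (1 call, NRARP) it was 3 with no filter, 3 without WT clone 4, 3 without KO clone 47, 0 without WT clone 6 and 0 with rounds averaged, and ran from 1 to 3 without single libraries. In SW480 (3 calls) it was 3 without any single library, and 2 without KO clone 17 or 21 or when every library had to reach 10, since DLL1 was then not tested. When every library had to reach 10, fewer members were tested, and 1 KO effect differed between HT29 and HCT116, while WT lines had 2 calls (HT29 and HCT116), 1 (HT29 and SW480) and 3 (HCT116 and SW480). Without single libraries, calls between clones ran from 1 to 3 for HT29 KO, stood at 0 for HT29 WT, ran from 1 to 2 for HCT116 KO and from 0 to 1 for SW480 KO. With rounds averaged, CTNNB1 itself missed the threshold in HT29, so the loss of a call there says little in that setting.

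Signs changed for members that did not pass. In HT29 the log2 values were -0.031 for NOTCH3, -0.27 for JAG1 and -0.10 for NRARP without WT clone 40. NOTCH3 was at -0.21 without KO clone 28, and JAG1 at -1.48 and NRARP at -0.29 without KO clone 38. Without single libraries NOTCH3 ran from -0.00070 to 0.38 and JAG1 from -0.52 to 0.80. In HCT116, NOTCH1 was at 0.063, JAG1 at -0.39 and JAG2 at 0.072 without WT clone 6, and without KO clone 44 NOTCH1 was at 0.059, JAG1 at -0.079, JAG2 at 0.10 and DLL4 at 0.059. In SW480, NOTCH1 was at 0.031 and NOTCH3 at -0.31 without KO clone 21, NOTCH3 at -0.084 and HES1 at 0.029 without WT clone 4, and HES1 at 0.10 without KO clone 17. HEY1 was at -0.018 in edgeR, -0.017 in DESeq2, -0.27 without WT clone 5 and -0.36 without KO clone 17. Without single libraries NOTCH3 ran from -0.24 to 0.50, HES1 from -0.044 to 0.061 and HEY1 from -0.18 to 0.25.

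The replicate block also ended the call of HES7 in HT29 (adjusted p = 0.0728), left WT NOTCH1 between HT29 and SW480 short of the adjusted p threshold (adjusted p = 0.0602), and moved no other single-gene value recomputed here across its threshold. The values of DLL1, DLL4, HEY1 and NOTCH3 rest on few reads in some lines, which limits what could be detected there.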
